A study of Rattus norvegicus with 12 samples.

Results

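Corticosterone exposure was read as a graded variable across 8 of the 12 rat libraries of the study: those from adrenalectomised rats (ADX), from ADX rats given corticosterone supplementation, from sham-operated rats, and from rats given high corticosterone. The groups were ranked by exposure as 0 for ADX, 1 for both supplemented ADX and sham, and 2 for high corticosterone. Each gene was tested for a linear trend of its log2 expression on that rank. With 2, 4 and 2 libraries at ranks 0, 1 and 2, the slope in effect follows the difference between ADX and high corticosterone. The rank 1 libraries enter mainly the fitted level and the spread. All rats were wild-type male Wistar rats aged 12 weeks, and RNA came from the dissected part of the hypothalamus that contains the paraventricular nucleus (PVH). The ADX libraries were taken 7 days after surgery and the high-corticosterone libraries after 12 days of treatment, in duplicate like every group; the labels give no dose, route or length for the supplementation, so the ranks order the groups and do not measure the hormone. The other 4 libraries, from acute corticosterone treatment, entered only 1 alternative fit, over all 12 libraries. The sources do not say whether a library is 1 rat or a pool, so the spread behind each p-value is that of these libraries and may be only technical.

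Corticosterone, which the adrenal cortex releases, is the chief glucocorticoid hormone of rats. It binds the mineralocorticoid receptor (Nr3c2) with high affinity and the glucocorticoid receptor (Nr3c1) with lower affinity, and both act as transcription factors, so that a gene may in principle differ between absent and basal hormone, between basal and excess hormone, or over the whole range. In the PVH, glucocorticoids are known for feedback repression of Crh, the peptide that starts the hormonal stress response.

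The 8 libraries held 25294220 to 36249006 assigned fragments, and 12829 of 17310 genes had enough counts to be tested. Levels are given as CPM, fragments scaled to the size of each library. The dissections were not equal in their neighbouring tissue: the mean log2 CPM of 21 thalamus markers was 5.95 and 6.08 in the 2 ADX libraries, 6.05 and 6.05 in supplemented ADX, 6.16 and 6.58 in sham and 6.48 and 6.42 in high corticosterone, although no single thalamus marker passed a test. The mean log2 CPM of 9 PVH transcription factors went the other way, from 4.58 and 4.44 in ADX, 4.56 and 4.46 in supplemented ADX and 4.29 and 4.31 in sham to 4.07 and 4.19 in high corticosterone. Counts of changed genes are therefore also given from a fit with the thalamus score as a term. In such bulk tissue, fewer cells of a type and less RNA per cell cannot be told apart.

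The trend test found 151 genes that rose and 153 that fell with corticosterone rank, 1.18% and 1.19% of the genes tested and 2.37% together, 304 genes in all (edgeR quasi-likelihood test, Benjamini-Hochberg adjusted p under 0.05). Among trend genes whose log2 CPM averaged 1 or more, the steepest rises were in Sult1a1 (a sulfotransferase), Gpd1 (glycerol-3-phosphate dehydrogenase), Ctgf (a matrix-associated growth factor) and Cd163 (the hemoglobin scavenger receptor of macrophages), and the steepest falls in Crh and in Aplnr, the apelin receptor. A 2-fold or larger span between ADX and high corticosterone was fitted for 36 of the 304 genes. In 179 of them the libraries were fully ordered, with both ADX libraries on one side of all 4 rank 1 libraries and both high-corticosterone libraries on the other.

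The count depended on single libraries, and the thalamus score lowered it. It was 39 without the first high-corticosterone library, 84 without the second, 113 and 62 without the first and second ADX library, 503 without the first supplemented ADX library and 838 without the second sham library. With the thalamus score as a term 32 genes were called, 30 of them among the 304. By name, 33 of the 304 genes, 19 that rose and 14 that fell, passed whichever library was left out. Any other trend gene named below lost its slope call without at least 1 library. Sult1a1, Aldoc and Top2a were among the 33 but lost the slope call with the thalamus score. Of the 33, 23 also passed with that score.

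All 23 of these genes were graded in the sense defined below. The 14 that rose include Abcg2, Acsl3, Aifm3, Cd163, Cxcl12, Cyp4f4, Degs2, Dusp3, Gjb6, Htra1, Mfsd2a, Prodh and Ret. The 9 that fell were Aqp4, Car5b, Cdh9, Col11a1, Cpxm1, Ednrb, Igfbp5, Olfml1 and Slc7a11. Acsl3, Cdh9 and Ret, like Fam210b, Adamts5, Cables1 and Plxna2 further on, fall outside the naming rule and were picked out after their values were seen. The set includes 6 genes of the astrocyte list, among them the channel genes Aqp4 (water channel) and Gjb6 (gap junction protein), the proline-degrading enzyme Prodh, the cystine transporter Slc7a11 and Aifm3.

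The shape of each trend was described by the position of rank 1, the share of the whole fitted difference that was already present between ADX and rank 1. A gene was called graded for a share between 0.25 and 0.75, an upper-threshold gene below 0.25 (nearly all of the difference between rank 1 and high corticosterone) and a lower-threshold gene above 0.75. Of the 304 trend genes, 260 were graded (125 rose and 135 fell), 41 were upper-threshold (25 rose and 16 fell) and 3 were lower-threshold. The median share was 0.40, with quartiles of 0.308 and 0.507, and in 223 of the 304 genes the step to high corticosterone was the larger. Genes lie on both sides of the limits without a gap: Gpd1 at 0.233 counted as upper-threshold, and Adamts5 at 0.253 as graded. Because a bend at rank 1 enters the spread that the trend test uses, this test favours graded genes. A fit with a mean for each group, in which a bend does not enter the spread, called 1156 slopes, 9.01% of genes (5.18% higher and 3.83% lower), of which 823 were graded, 292 upper-threshold and 41 lower-threshold.

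The steps themselves were tested in that group fit. The low step, rank 1 against ADX, was called for 12 genes higher and 14 lower at rank 1, 0.203% of genes (0.0935% and 0.109%). The high step, high corticosterone against rank 1, was called for 288 higher and 207 lower, 3.86% of genes (2.24% and 1.61%). At an unadjusted p under 0.05 the counts were 1237 and 2116. Each step compares 2 libraries with the same 4 rank 1 libraries, so the 2 steps share those libraries. Both counts, and their order, depended on the rank 1 group: with sham alone there were 99 low and 84 high steps, and with supplemented ADX alone 11 and 1294. With the thalamus score as a term they were 16 and 277. Both counts also depended on single libraries. The low count was 365 and 44 without the first and second sham library, 41 and 40 without the first and second high-corticosterone, 11 and 4 without the first and second ADX, and 4 and 7 without the first and second supplemented ADX library. The high count was 992 without the second sham library, 107 and 277 without the first and second high-corticosterone, and 242 and 310 without the first and second supplemented ADX library. Whichever library was left out, 3 of the 26 low steps and 76 of the 495 high steps passed.

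**Figure D1:**
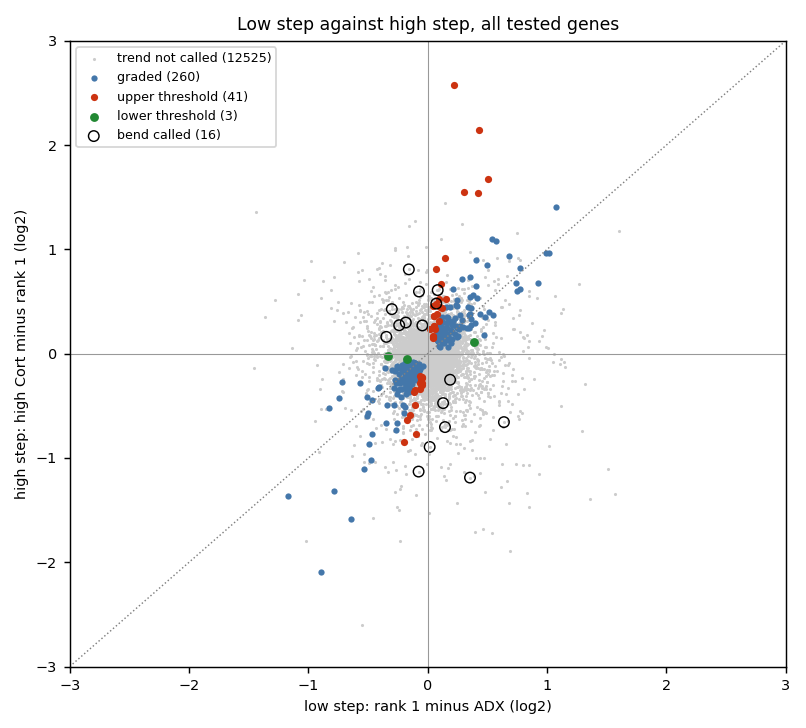
Low step (rank 1 minus ADX, x axis, log2) against high step (high corticosterone minus rank 1, y axis, log2) for the tested genes, with 2 genes beyond the axes; colours mark the 260 graded, 41 upper-threshold and 3 lower-threshold genes, open circles the 16 genes with a called bend, and the dotted line equal steps. The axes share the rank 1 libraries; graded genes lie in the 2 quadrants where the steps have the same sign, upper-threshold genes near the y axis, and most bend genes where the signs differ.

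A fall or rise in both steps, each called on its own, was found for 14 genes, all graded. The 9 that rose were Aifm3, Htra1, Abcg2, Dusp3, Cyp4f4, Prodh, Cxcl12, Gjb6 and Fam210b, and the 5 that fell were Slc7a11, Igfbp5, Gpr101, Reln and Top2a. In each of the 14 genes the 8 libraries were fully ordered, which choosing genes by 2 called steps of the same sign nearly fixes. The trend call held without each library in turn for 11 of the 14, the low step for 3 and both steps for the same 3: Slc7a11, Aifm3 and Htra1.

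Slc7a11 encodes the transporter that imports cystine in exchange for glutamate and supplies glutathione synthesis. Its level was 198 and 184 CPM in the ADX libraries, 141 and 139 in supplemented ADX, 149 and 144 in sham and 117 and 110 in high corticosterone. The groups at the 3 ranks did not overlap, and the supplemented ADX pair lay just below the sham pair. The slope was -0.38 ± 0.03 log2 per rank (SE, adjusted p = 1.13e-05), with a low step of -0.42 ± 0.04 (adjusted p = 6.18e-04) and a high step of -0.33 ± 0.04 (adjusted p = 6.23e-04). Slc7a11 was the only 1 of 19 tested genes of the amino acid stress response list with a called slope, against 2.37% of all genes.

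Aifm3, a mitochondrial flavoprotein of the apoptosis-inducing factor family, went the opposite way. It was at 42.3 and 41.0 CPM in ADX, 61.3 and 55.5 in supplemented ADX, 61.4 and 59.3 in sham, and 80.1 and 76.6 in high corticosterone. Sham and supplemented ADX overlapped and the 3 ranks did not. The slope was 0.45 ± 0.03 (adjusted p = 1.13e-05), with a low step of 0.51 ± 0.05 and a high step of 0.40 ± 0.05.

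Htra1, a secreted serine protease that acts on the extracellular matrix, had the largest span of the 3. It measured 38.9 and 33.7 CPM in ADX, 59.4 and 53.2 in supplemented ADX, 66.9 and 65.1 in sham and 96.3 and 88.6 in high corticosterone. High corticosterone was 2.55-fold above ADX, and the slope was 0.67 ± 0.06 (adjusted p = 5.16e-04). For Slc7a11, Aifm3 and Htra1 the slope and both steps passed in every alternative run, the thalamus score and each left-out library included.

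Among the other graded genes were several with known places in astrocytes and brain vessels. Abcg2, the drug efflux pump of brain endothelium, was at 15.9 and 15.4 CPM in ADX, 20.5 and 21.0 in supplemented ADX, 20.0 and 21.6 in sham, and 39.9 and 37.6 in high corticosterone. Its high step of 0.90 ± 0.06 (adjusted p = 3.95e-06) was larger than its low step of 0.40 ± 0.06 (adjusted p = 0.0259), but the difference between the steps was not called (bend adjusted p = 0.104). Prodh had 66.9 and 63.1 CPM in ADX, 84.2 to 95.5 at rank 1 and 122 and 107 in high corticosterone, a slope of 0.41 ± 0.04 (adjusted p = 1.54e-04). Gjb6, which encodes connexin 30 of astrocyte gap junctions, had 51.5 and 49.1, then 62.6 to 66.6, then 94.9 and 80.5 CPM, a slope of 0.40 ± 0.03 (adjusted p = 8.35e-05). In both genes the 3 ranks did not overlap.

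Igfbp5, which binds insulin-like growth factors, was the graded gene with the lowest trend p among falling genes after Slc7a11. It fell from 104 and 116 CPM in ADX through 77.7 to 81.3 at rank 1 to 53.5 and 63.3 in high corticosterone (slope -0.46 ± 0.03, adjusted p = 5.55e-05). Aqp4, the water channel of astrocyte endfeet, was lower at each rank, with a slope of -0.24 ± 0.03 (adjusted p = 5.43e-04), and so was the endothelin receptor gene Ednrb (slope -0.25 ± 0.03, adjusted p = 5.43e-04). Mfsd2a, the lipid transporter of the blood-brain barrier, rose from 14.1 and 13.2 CPM through 16.2 to 18.8 to 27.3 and 23.6 (slope 0.45 ± 0.05, adjusted p = 3.95e-04). Top2a, the topoisomerase of dividing cells, was at low levels throughout: 2.68 and 3.21 CPM in ADX, 0.977 to 1.97 at rank 1 and 0.320 and 0.656 in high corticosterone (slope -1.21 ± 0.17, adjusted p = 0.00393).

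**Figure D2:**
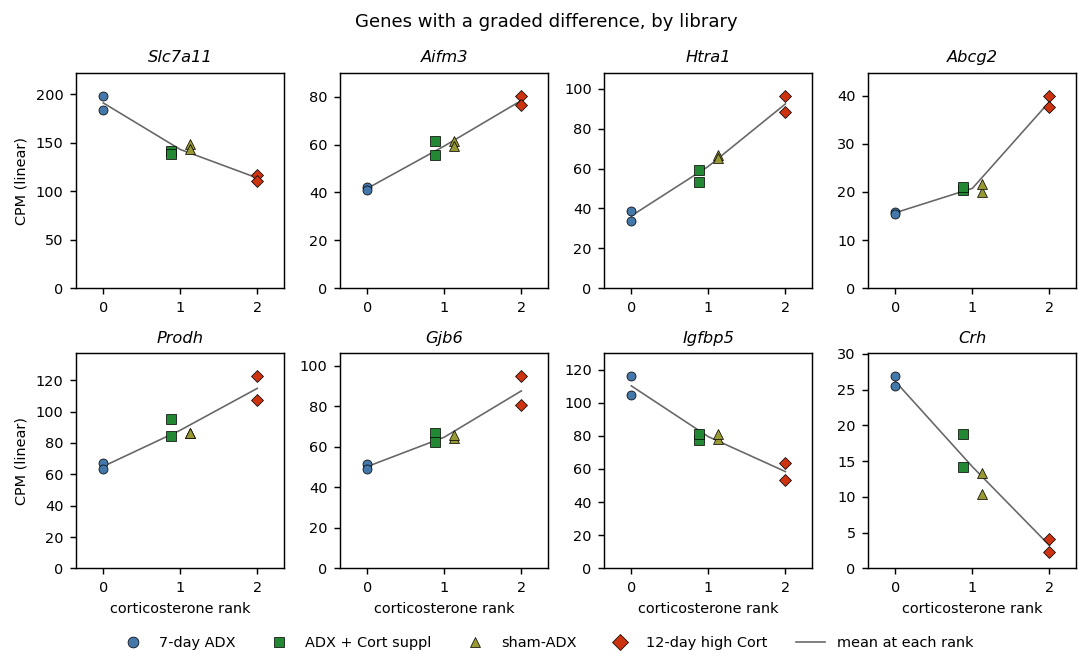
CPM in each of the 8 libraries (points, linear axis from 0) against corticosterone rank for 8 graded genes, with the mean at each rank joined by a line; squares and triangles separate supplemented ADX from sham at rank 1. Aifm3, Htra1, Abcg2, Prodh and Gjb6 climb and Slc7a11, Igfbp5 and Crh descend, with no overlap between ranks.

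Crh had the steepest fall of the trend genes at or above that average level. Its level was 25.5 and 26.9 CPM in ADX, 14.2 and 18.8 in supplemented ADX, 10.5 and 13.4 in sham and 2.32 and 4.10 in high corticosterone. The ranks did not overlap, and ADX was 8.15-fold above high corticosterone. The slope was -1.32 ± 0.22 (adjusted p = 0.0394), but this call was lost in 8 of 20 alternatives, with an adjusted p of 0.448 with the thalamus score as a term. It was also lost without the first sham library and without any of the ADX and high-corticosterone libraries. The high step, -2.09 ± 0.25 (adjusted p = 0.00866), passed in all 18 alternatives, while the low step of -0.90 ± 0.17 did not pass (adjusted p = 0.185). The 2 PVH transcription factors Sim1 and Pou3f2 fell with rank alongside it, with slopes of -0.24 ± 0.05 (adjusted p = 0.033) and -0.18 ± 0.03 (adjusted p = 0.0199). Both calls were lost with the thalamus score. The part of these genes in the Crh trend was not tested.

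Of 21 tested genes of hypothalamic peptides 17 had a negative slope, but Crh alone had a called one (against 1.19% of all genes called lower), and 4 had a called high step, all lower (against 1.61%): Crh, Avp, Trh and Pdyn. Avp (vasopressin) was at 144 and 148 CPM in ADX, 148 and 141 in supplemented ADX, 94.9 and 102 in sham and 74.2 and 57.2 in high corticosterone. Supplemented ADX thus lay at the ADX level and sham between the ends (slope -0.57 ± 0.16, adjusted p = 0.123, though it passed in 4 of 20 alternatives; high step -0.87 ± 0.10, adjusted p = 0.00737), and the call of the high step was lost with sham alone at rank 1. Trh had a high step of -0.57 ± 0.06 and Pdyn (prodynorphin) one of -0.38 ± 0.05; both calls were lost with sham alone at rank 1 and with all 12 libraries in the fit. Oxt (oxytocin) ranged from 177 to 380 CPM with no called contrast. The median slope of the list was -0.10 against -0.0020 over all tested genes. Pcsk1, a convertase that processes Crh precursor, had a slope of -0.17 ± 0.04 (adjusted p = 0.0447). That call was lost with the thalamus score. Pcsk1 was the 1 of 15 genes of the list on Crh and vasopressin signalling with a called slope, against 2.37% of all genes.

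Upper-threshold genes were near their ADX level at rank 1 and differed in high corticosterone. All 41 had a called high step. They include Hif3a, a hypoxia-inducible factor subunit, the zinc finger factors Klf9 and Klf15, the receptor co-chaperone Fkbp5 and Gpd1, which are well known for induction by glucocorticoids, and among falling genes Nes (nestin, an intermediate filament of progenitors and vessels) and Clec14a, an endothelial lectin.

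Hif3a was at 1.31 and 0.603 CPM in ADX, 1.39 and 1.19 in supplemented ADX, 0.704 and 1.23 in sham and 7.57 and 5.94 in high corticosterone. The 6 libraries at ranks 0 and 1 overlapped and the high-corticosterone pair stood apart. Its high step was 2.58 ± 0.23 (adjusted p = 2.12e-04) and its low step 0.22 ± 0.32 (adjusted p = 0.867).

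Klf9 was at 73.6 and 72.5 CPM in ADX, 73.7 and 74.1 in supplemented ADX, 78.5 and 80.9 in sham and 107 and 107 in high corticosterone. Supplemented ADX lay just above ADX, sham a little higher, and the high-corticosterone pair well apart. The high step was 0.48 ± 0.04 (adjusted p = 1.41e-05) and the low step 0.07 ± 0.04 (adjusted p = 0.573). Klf9 was the 1 trend gene whose bend was also called (-0.20 ± 0.03, adjusted p = 0.0146). Its 2 steps thus differed from each other by the test. The bend call was lost with sham alone at rank 1. It was also lost without the first high-corticosterone library, either ADX library or either supplemented ADX library.

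Klf15 had 19.5 and 18.7 CPM in ADX, 19.0 to 20.5 at rank 1 and 28.1 and 26.1 in high corticosterone (high step 0.46 ± 0.06, adjusted p = 7.73e-04). Fkbp5 had 27.8 and 26.0, then 27.6 to 29.3, then 46.0 and 36.6 CPM (high step 0.52 ± 0.08, adjusted p = 0.0039). Gpd1 had 27.8 and 21.4 CPM in ADX, 26.4 to 43.7 at rank 1 and 123 and 102 in high corticosterone (high step 1.68 ± 0.15, adjusted p = 0.0079). In all 3 the high-corticosterone pair lay above every other library. The high step passed in every alternative for Hif3a, Klf9, Klf15, Ctgf, Nes and Clec14a; for Fkbp5 it was lost with sham alone at rank 1, and for Gpd1 also without the first high-corticosterone library. The slopes were less stable: without either high-corticosterone library 1 upper-threshold gene was called.

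Of the falling genes, Nes was at 27.5 and 29.1 CPM in ADX, 23.7 to 27.0 at rank 1 and 12.6 and 14.6 in high corticosterone (high step -0.85 ± 0.08, adjusted p = 8.76e-05). Clec14a was at 10.1 and 10.3, then 8.69 to 10.8, then 5.56 and 5.57 CPM (high step -0.77 ± 0.09, adjusted p = 6.23e-04). Adamts9, a matrix protease, had a high step of -0.58 ± 0.08, lost with sham alone at rank 1 (adjusted p = 0.054), and Slc16a1, the lactate transporter of brain vessels, one of -0.34 ± 0.05.

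The lower-threshold class held only Pygm (muscle glycogen phosphorylase), Pdlim5 (a scaffold at actin filaments) and Fads2 (a fatty acid desaturase). Pygm was at 76.0 and 73.3 CPM in ADX, 97.4 and 88.5 in supplemented ADX, 104 and 102 in sham and 112 and 100.2 in high corticosterone. ADX lay below all other libraries, and rank 1 overlapped with high corticosterone. Its low step was 0.39 ± 0.05 (adjusted p = 0.0112) and its high step 0.11 ± 0.05 (adjusted p = 0.281). Pdlim5 was at 56.1 and 58.8 CPM in ADX against 43.2 to 47.6 at rank 1 and 46.3 and 43.7 in high corticosterone (low step -0.33 ± 0.05, adjusted p = 0.00953). Fads2 was at 208 and 218 CPM in ADX, against 182 to 195 at rank 1 and 182 and 181 in high corticosterone, and its low step did not pass (-0.17 ± 0.03, adjusted p = 0.06). The slope calls of all 3 were lost with the thalamus score (adjusted p = 0.519, 0.515 and 0.402), and 27 genes fell in this class when sham alone stood for rank 1.

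**Figure D3:**
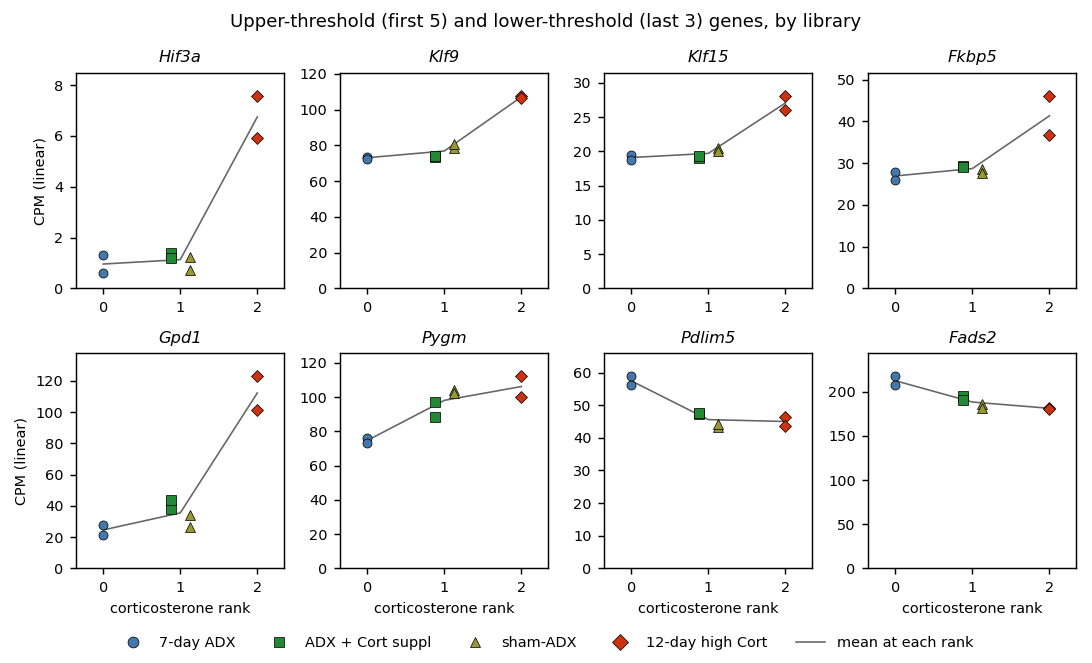
CPM in each library (linear axis from 0) against corticosterone rank for the upper-threshold genes Hif3a, Klf9, Klf15, Fkbp5 and Gpd1 and the lower-threshold genes Pygm, Pdlim5 and Fads2, with the mean at each rank joined by a line. In the first 5 the line is flat or shallow to rank 1 and then steep; in the last 3 ADX stands apart from the other ranks.

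A bend, the difference between the rank 1 mean and the mean of the 2 ends, was called for 16 genes, 7 above and 9 below, 0.125% of genes (0.0546% and 0.0702%), against 867 at an unadjusted p under 0.05. They were Kdr, Per1, Per2, Per3, Fabp7, Cd93, Mmp14, Klf9, Slco1c1, Hbb, Pcdhgb7, Kcnf1, Ahnak, Cables1, Banp and Plxna2. In 13 the 2 steps had opposite signs, but only 5 were non-monotone by the stricter rule that all 4 rank 1 libraries lie outside all 4 end libraries: Mmp14, Slco1c1 and Hbb peaked at rank 1, and Ahnak and Banp had a trough. Over all tested genes 304, or 2.37%, had rank 1 outside the ends in this way. The bend count was 3 without the first high-corticosterone or the first supplemented ADX library, 7 without either ADX library, 6 without the second supplemented ADX, 33 without the second high-corticosterone, and 64 and 63 without the first and second sham library. Only Kdr kept its bend whichever library was left out, and that bend was lost with sham alone at rank 1 (adjusted p = 0.0581).

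Kdr, the main receptor of vascular endothelial growth factor on endothelium, had the lowest p for a bend. It was at 48.5 and 53.8 CPM in ADX, 51.7 and 54.0 in supplemented ADX, 50.3 and 50.8 in sham and 25.8 and 29.6 in high corticosterone. The 6 libraries at ranks 0 and 1 overlapped, so the bend came from the last step alone (high step -0.89 ± 0.06, adjusted p = 1.12e-05; bend 0.46 ± 0.05, adjusted p = 0.00366). Its slope was not called (adjusted p = 0.165). Cd93, another endothelial receptor, had the same course, with 32.5 to 39.1 CPM at ranks 0 and 1 and 14.5 and 16.5 in high corticosterone (high step -1.13 ± 0.09, adjusted p = 1.1e-04).

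The period genes Per1, Per2 and Per3, the repressor arm of the circadian clock, all had a called bend with rank 1 low. Clock genes are also known as hormone targets, and Per1 as one induced by glucocorticoids. Their 3 RefSeq promoter windows (build GRCr8, 250 bases before to 50 after the start) are shown because all 3 genes had a called bend. Capitals mark matches on either strand to the E-box CACGTG, the D-boxes TTATGTAA and TTACGTAA, the cyclic AMP response element TGACGTCA or its half-site TGACG, and the glucocorticoid receptor palindrome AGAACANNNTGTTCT or its half-site AGAACA.
Per1, chr10:54304126-54304425, + strand: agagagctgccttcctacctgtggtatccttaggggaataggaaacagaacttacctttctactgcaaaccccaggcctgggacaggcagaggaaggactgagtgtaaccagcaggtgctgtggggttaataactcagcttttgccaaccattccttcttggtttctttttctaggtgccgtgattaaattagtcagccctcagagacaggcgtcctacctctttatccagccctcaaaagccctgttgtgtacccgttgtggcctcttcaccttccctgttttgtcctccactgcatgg
Per2, chr9:99496944-99497243, - strand: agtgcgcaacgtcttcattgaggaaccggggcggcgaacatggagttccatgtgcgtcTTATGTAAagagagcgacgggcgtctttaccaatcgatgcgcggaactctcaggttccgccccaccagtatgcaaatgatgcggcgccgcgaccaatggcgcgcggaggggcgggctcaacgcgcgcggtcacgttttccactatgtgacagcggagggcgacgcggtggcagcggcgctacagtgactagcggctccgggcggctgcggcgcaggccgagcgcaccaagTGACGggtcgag
Per3, chr5:166777751-166778050, - strand: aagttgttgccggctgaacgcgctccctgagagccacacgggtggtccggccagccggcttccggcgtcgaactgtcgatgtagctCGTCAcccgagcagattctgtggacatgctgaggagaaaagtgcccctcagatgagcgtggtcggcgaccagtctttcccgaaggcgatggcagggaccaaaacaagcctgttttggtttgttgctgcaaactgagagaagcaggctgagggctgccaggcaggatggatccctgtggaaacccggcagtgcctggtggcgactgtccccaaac
The Per2 window held the D-box TTATGTAA at bases 59 to 66 and a TGACG half-site at bases 289 to 293, and the Per3 window the half-site as CGTCA at bases 87 to 91. The Per1 window held none of these letters, and bases outside the 3 windows were not searched. Of 33469 such windows of 300 bases, 6.42% held the E-box, 1.01% a D-box, 1.83% the full cyclic AMP element, 21.2% its half-site (the full element included), 0.0149% the receptor palindrome and 20.7% its half-site.

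Per1 was at 55.0 and 49.3 CPM in ADX, 48.5 and 50.3 in supplemented ADX, 40.0 and 48.3 in sham and 84.0 and 79.7 in high corticosterone. Only the high-corticosterone pair stood apart (high step 0.81 ± 0.07, adjusted p = 2.67e-04; low step -0.16 ± 0.07, adjusted p = 0.517). Per2 was at 75.4 and 70.0 CPM in ADX, 71.1 and 68.6 in supplemented ADX, 54.6 and 53.9 in sham and 75.3 and 73.5 in high corticosterone. Sham alone was low, and it differed from supplemented ADX, the other rank 1 group (0.37 ± 0.05, adjusted p = 0.0137).

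Per3 was at 97.5 and 100.4 CPM in ADX, 81.4 and 87.3 in supplemented ADX, 73.6 and 69.9 in sham and 87.4 and 86.4 in high corticosterone. ADX was the highest and sham the lowest, with supplemented ADX at the level of high corticosterone (low step -0.35 ± 0.04, adjusted p = 0.00275; supplemented ADX against sham 0.23 ± 0.05, adjusted p = 0.0471). With sham alone at rank 1 the bends of Per2 (-0.44 ± 0.05) and Per3 (-0.37 ± 0.04) passed, each with an adjusted p of 0.00444, and that of Per1 did not (adjusted p = 0.163). With supplemented ADX alone, that of Per1 passed (-0.40 ± 0.05, adjusted p = 3.22e-04) and those of Per2 and Per3 did not (adjusted p = 0.554 and 0.11). None of 16 tested clock genes had a called slope, against 2.37% of all genes. The hour at which tissue was taken is not given in the sources used here.

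The choice of the rank 1 group mattered for the other bends too. Of the 16, 6 were called with sham alone at rank 1, 11 with supplemented ADX alone, and 1 with each: Mmp14, a membrane-bound matrix metalloproteinase. Mmp14 was at 15.9 and 15.3 CPM in ADX, 20.5 and 15.97 in supplemented ADX, 22.2 and 21.2 in sham and 7.53 and 9.80 in high corticosterone (bend 0.77 ± 0.09, adjusted p = 0.0146), and the lowest rank 1 library lay only just above the highest ADX library. Its high step of -1.19 ± 0.12 was called and its low step of 0.35 ± 0.11 was not (adjusted p = 0.35). The bend was lost without the first high-corticosterone library and without either ADX library.

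Fabp7, a fatty acid binding protein of radial glia and astrocytes, was at 18.3 and 19.6 CPM in ADX, 15.7 and 16.7 in supplemented ADX, 25.02 and 28.9 in sham and 12.97 and 12.7 in high corticosterone. Its sham libraries were the highest, and supplemented ADX was below ADX, so its bend (0.42 ± 0.06, adjusted p = 0.0146) joined 2 unlike groups. Slco1c1, which carries thyroxine across brain vessels, was at 101 and 101 CPM in ADX, 110 and 103 in supplemented ADX, 125 and 123 in sham and 94.3 and 98.9 in high corticosterone (bend 0.22 ± 0.03, adjusted p = 0.0146). Here the 2 rank 1 groups also differed (supplemented ADX minus sham -0.23 ± 0.05, adjusted p = 0.0408).

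Hbb, a hemoglobin chain, was at 8.62 and 6.67 CPM in ADX, 12.6 and 11.8 in supplemented ADX, 10.5 and 12.8 in sham and 7.97 and 7.21 in high corticosterone (bend 0.65 ± 0.09, adjusted p = 0.0146). The summed level of the 5 hemoglobin and erythroid genes tested, Hbb included, was 21.3 to 27.7 CPM at the ends and 34.2 to 42.2 at rank 1, but their mean log2 CPM overlapped, at 1.78 in the first ADX and 1.64 in the second supplemented ADX library. Reads of hemoglobin genes can be split between near-identical copies, and the part of blood left in the tissue was not tested. Ahnak was at 88.1 to 99.4 CPM at rank 1 against 100.1 to 114 at the ends, and Banp at 15.8 to 17.5 against 18.7 to 23.2.

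**Figure D4:**
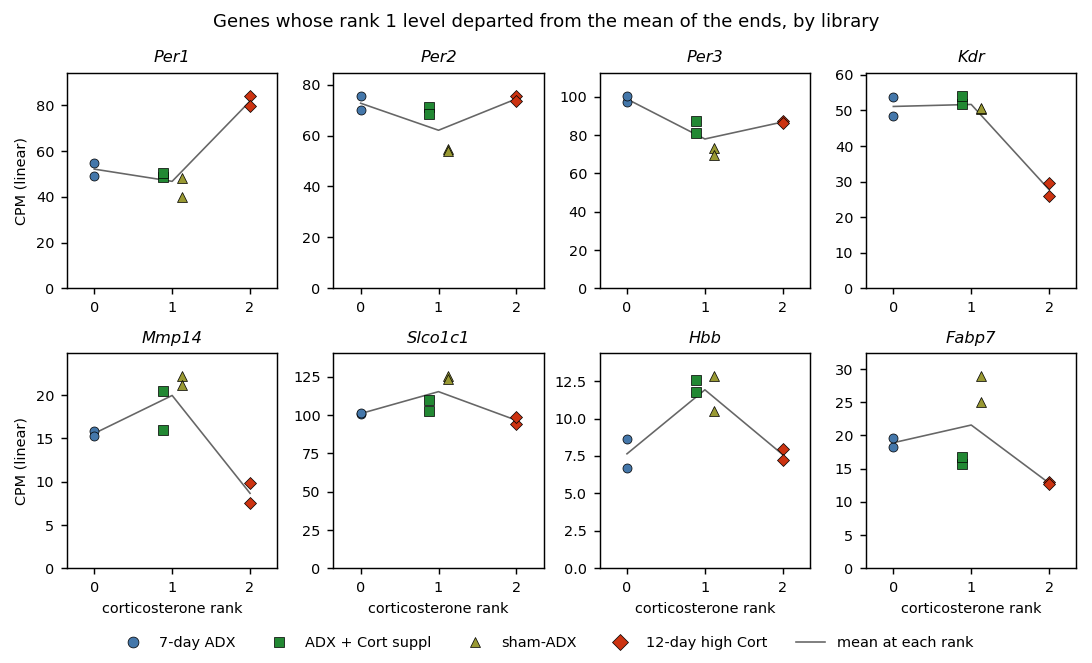
CPM in each library (linear axis from 0) against corticosterone rank for 8 genes with a called bend, with the mean at each rank joined by a line. Per1 and Kdr are level to rank 1 and then part, the sham triangles alone make the dip of Per2 and the peak of Fabp7, and Mmp14, Slco1c1 and Hbb are highest at rank 1.

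Glucocorticoid-induced genes as a group were read from a list of 46 tested genes. Like the other lists, it was chosen with earlier results of these data known, so the shares below only describe it. The slope was called higher for 13 (against 1.18% of all genes) and lower for 1, Slc16a1. The low step was called for 1, Gjb6, against 0.0935% of all genes higher, and the high step for 22 higher and 1 lower, against 2.24% and 1.61%. The median low step was 0.06 and the median high step 0.34, against 0.00090 and -0.0018 over all tested genes. The bend, which tests the difference between the steps in each gene, was called for 2 of the 46, Per1 and Klf9. Sgk1, a kinase that regulates ion transport, was at 24.6 and 27.4 CPM in ADX, 26.6 to 32.2 at rank 1 and 91.2 and 66.1 in high corticosterone, with a high step of 1.45 ± 0.13 (adjusted p = 0.00397) and an uncalled slope (adjusted p = 0.0739); the high step was lost with the thalamus score (adjusted p = 0.107) and with sham alone at rank 1. Tsc22d3, the leucine zipper protein GILZ, had 54.3 to 59.1 CPM at ranks 0 and 1 and 83.0 and 67.1 in high corticosterone (high step 0.41 ± 0.08, adjusted p = 0.0305); that call was lost without any 1 of the sham and supplemented ADX libraries and without the first high-corticosterone library.

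Other members of the list were graded. Sult1a1 was at 1.34 and 1.52 CPM in ADX, 2.75 to 3.23 at rank 1 and 10.9 and 5.25 in high corticosterone (slope 1.28 ± 0.16, adjusted p = 0.00428). Mt2A, a metallothionein with near-identical relatives, was at 0.565 and 0.603, then 0.708 to 1.09, then 2.202 and 1.44 CPM (slope 0.83 ± 0.15, adjusted p = 0.0145). The ranks did not overlap in either gene, and the first high-corticosterone library was the higher of its pair in both. That library also had the highest level of the ribosomal RNA gene Rn18s, 3530 CPM against 791 to 1713 in the others; its part in these values was not tested.

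**Figure D5:**
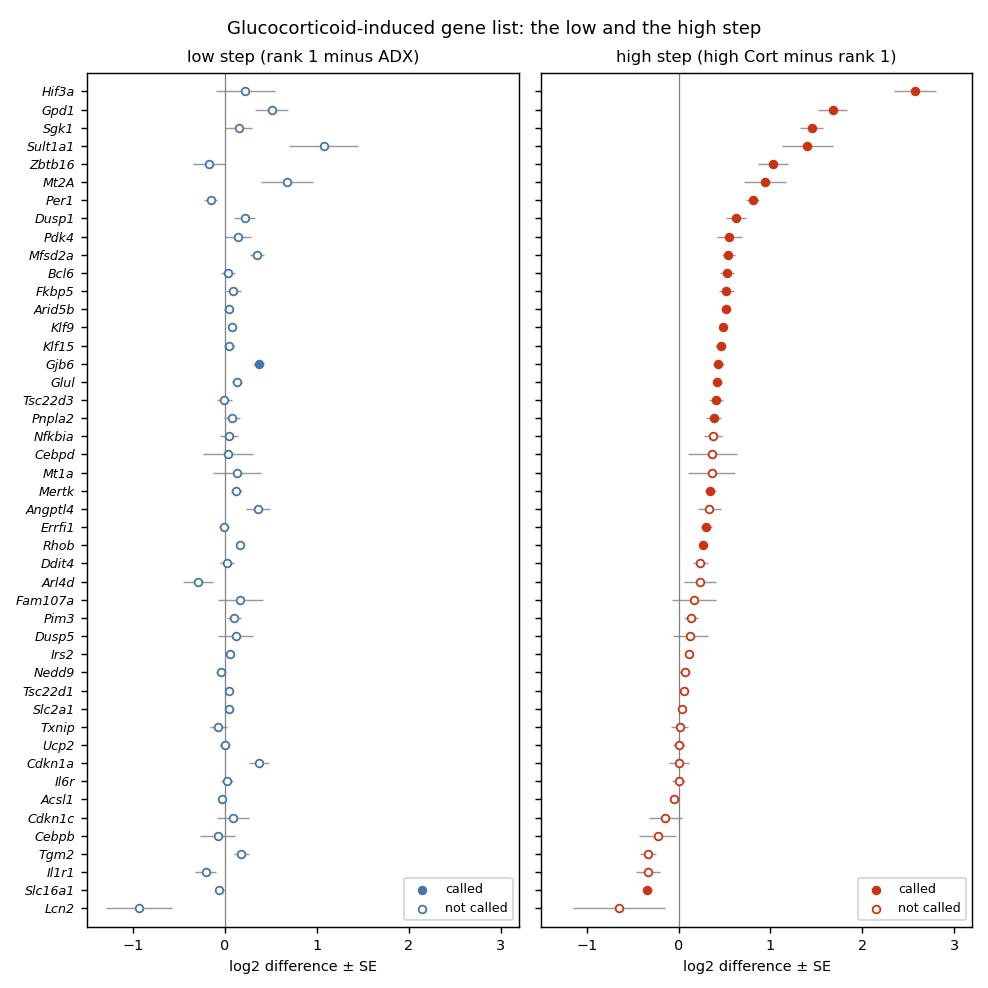
Low step (left) and high step (right) in log2 with SE bars for the 46 tested genes of the glucocorticoid-induced list, sorted by the high step; filled points passed at an adjusted p under 0.05. Of the low steps 1 is filled, and of the high steps 22 on the positive and 1 on the negative side.

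Neither receptor gene had a called contrast. Nr3c1 ranged from 199 to 236 CPM (slope -0.07 ± 0.03, adjusted p = 0.242) and Nr3c2 from 46.0 to 53.3 (slope -0.05 ± 0.03, adjusted p = 0.394). Of 20 genes of the corticosteroid receptor system, Fkbp5 and the efflux pump gene Abcb1a had a called slope, against 1.18% of all genes called higher. The slope of Abcb1a was 0.12 ± 0.02 (adjusted p = 0.0117). The slope calls of both genes were lost with the thalamus score.

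The vessel and matrix lists did not all move alike. Of 25 tested endothelial genes 22 had a negative slope. A called fall with rank was found for 4 (Aplnr, Cdh5, Clec14a and Tie1, against 1.19% of all genes). All 4 slope calls were lost with the thalamus score. No endothelial gene had a called low step. The high step was called lower for 11 (against 1.61%) and higher for none. Among the 11 were Kdr, Cd93, Aplnr (-1.11 ± 0.15, lost with sham alone at rank 1) and the claudin gene Cldn5 (-0.23). Cldn5 was picked out after its value was seen. The mean log2 CPM of the list was 3.79 and 3.91 in high corticosterone and 4.19 to 4.32 in the other 6 libraries. Of 19 blood-brain barrier transport genes 4 rose: Abcg2, Abcb1a, Mfsd2a and Heph, a ferroxidase that exports iron. The 2 that fell were Slc16a1 and Slc38a5. Of all genes 1.18% were called higher and 1.19% lower. The slopes of Abcb1a and Heph were lost with the thalamus score (adjusted p = 0.0844 and 0.109). Those of Slc16a1 and Slc38a5 were lost too, and those of Abcg2 and Mfsd2a were kept. Of 24 matrix genes 5 rose, including Htra1, Ctgf and Fn1 (fibronectin). Another 5 fell, including the collagens Col1a1 (-0.38 ± 0.06) and Col3a1 (-0.55 ± 0.09), against the same shares. With the thalamus score the slope calls of Htra1 and Col1a1 were kept, and those of Ctgf, Fn1 and Col3a1 were lost.

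Glial lists also held trends. Of 23 astrocyte genes 6 rose (among them Aifm3, Aldoc, Gjb6 and Prodh) and 2 fell (Aqp4 and Slc7a11), against 1.18% and 1.19% of all genes, and the median slope of the list was 0.05. Aldoc, a glycolytic enzyme of astrocytes, was at 554 and 544 CPM in ADX, 660 to 751 at rank 1 and 956 and 819 in high corticosterone (slope 0.35 ± 0.04, adjusted p = 0.00247). Of 21 microglia and macrophage genes Cd163 rose and Ptprc, the leukocyte phosphatase CD45, fell (-0.25), against 1.18% and 1.19% of all genes. With the thalamus score the slope call of Ptprc was lost and that of Cd163 was kept. Cd163 was at 2.32 and 2.03 CPM in ADX, 2.46 and 2.98 in sham, 3.81 and 3.87 in supplemented ADX and 7.41 and 6.30 in high corticosterone (slope 0.85 ± 0.11, adjusted p = 0.00164). No oligodendrocyte gene of 26 and no interferon gene of 24 had a called slope, against 2.37% of all genes. Of 23 cell cycle genes 21 had a negative slope, with a median slope of -0.28. Called lower were 2, Top2a and Mki67 (-0.37 ± 0.07, adjusted p = 0.0252), against 1.19% of all genes. Both slope calls were lost with the thalamus score.

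Of 28 potassium channel genes 1 rose (Kcnk1, 0.25) and 1 fell (Kcnh1, -0.18), against 1.18% and 1.19% of all genes, and of 33 glutamate and GABA receptor genes none had a called slope. More of them had a called high step: 6 potassium channel genes were higher and 1 lower, and 5 receptor genes were higher, against 2.24% higher and 1.61% lower of all genes. Of 14 pan-neuronal and neurotransmitter markers Snap25 rose (0.11 ± 0.03, adjusted p = 0.0488), against 1.18% of all genes. That call was lost with the thalamus score (adjusted p = 0.636), as were the slope calls of Kcnk1 and Kcnh1. The immediate-early genes Fos and Egr1, which respond to neuronal activity, had no called contrast, with 5.33 to 12.4 CPM for Fos and 12.7 to 22.8 for Egr1.

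The 2 groups at rank 1 were not alike. They were deposited separately, and a difference in processing cannot be told apart from one between the groups. Supplemented ADX differed from sham in 85 genes, 19 higher and 66 lower, 0.663% of genes (0.148% and 0.514%), and none of the 85 passed whichever library was left out; the count was 1 and 5 without the first and second supplemented ADX library, 37 without the second sham, 53 without the first high-corticosterone, 739 without the first sham library and 11 with the thalamus score, of which 3 were among the 85. Of the 85 genes 3 were also trend genes, where trend genes made up 2.37% of all genes tested. The lowest p belonged to Fabp7 (-0.74 ± 0.08) and to Nr1d1, a repressor of the clock (-0.46 ± 0.05), each with an adjusted p of 0.00304. Nr1d1 was at 74.0 and 67.9 CPM in supplemented ADX and 72.7 and 75.4 in ADX, against 94.6 and 100.3 in sham and 88.3 and 87.3 in high corticosterone. The 2 adrenalectomised groups thus overlapped and lay below sham and high corticosterone.

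The same division appeared in some other genes of this comparison, and how many of the 85 showed it was not counted. Fabp7 and Per2, described above, did not show it. Gal (galanin) was at 15.6 and 14.3 CPM in supplemented ADX and 13.7 and 14.2 in ADX, against 10.6 and 8.97 in sham and 11.6 and 9.84 in high corticosterone (supplemented ADX minus sham 0.61 ± 0.10, adjusted p = 0.0174). Penk (proenkephalin), picked after its values were seen, was at 71.3 and 64.4, and 67.3 and 67.5, against 53.2 and 43.6, and 50.5 and 48.3, in the same order (0.49 ± 0.08, adjusted p = 0.0326). Kcnj3, a potassium channel subunit, went the other way, with 37.6 to 42.0 CPM in the 4 adrenalectomised libraries and 51.7 to 58.2 in the other 4 (-0.47 ± 0.07, adjusted p = 0.0137). Of 28 potassium channel genes 2 were called higher and 5 lower in this comparison, against 0.148% and 0.514% of all genes; the fit with the thalamus score left 11 calls in all. The thalamus score of the supplemented ADX libraries, 6.05 and 6.05, was below that of both sham libraries. The score had the same division, with 5.95 to 6.08 in the 4 adrenalectomised libraries and 6.16 to 6.58 in the other 4. With the score as a term the adjusted p was 0.0371 for both Nr1d1 and Fabp7, 0.356 for Gal and 0.259 for Kcnj3.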

How the data were processed

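RNA-seq libraries were made with the TruSeq RNA kit version 2, which does not mark strand, so reads of antisense or overlapping genes cannot be told apart. CASAVA 1.8.2, TopHat2 2.1.1, Cufflinks 2.2.1 and build rn6 are named in the submitters' processing notes. The deposited values used are the authors' estimated counts of fragments per gene, of which 0.757% were not whole numbers; they were rounded. The supplemented ADX libraries were deposited in another table than the other 3 groups, and counts, not the authors' scaled values, were used for that reason. In the deposited status field, 1 gene was marked as failed in the first sham library and 2 in the first ADX library.

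Replicates were not copies of each other: a chi-square over degrees of freedom of their counts was 3.02 to 7.94. Genes passing edgeR's filter (count 10, total 15) were scaled by TMM and fitted with edgeR 4.0.16 (R 4.3.3), quasi-likelihood test with robust spread and Benjamini-Hochberg adjustment over 12829 genes. The slope fit had 6 residual degrees of freedom and the group fit, used for the steps, the bend and the rank 1 comparison, 4. Values given with ± are log2 differences with SE. No gene list was tested as a set. Alternatives were RLE scaling, other filters, DESeq2 1.42.0, limma 3.58.1 on log2 CPM, all 12 libraries, a replicate block, the thalamus score, other ranks and rank 1 groups, and each library left out. A left-out library leaves its group with 1, assumed to vary like the others. The scripts were tested on simulated data.

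Named genes were the 12 highest and 12 lowest called slopes (mean log2 CPM of at least 1, end groups not overlapping), by smallest p up to 8 per shape and direction, up to 10 per direction for each contrast and up to 6 per gene list, and 20 genes always. The groups, the 28 gene lists and the named genes were chosen with earlier results of these data known. Genes were matched to RefSeq promoter windows by symbol, 3 of 3. The values of 1 trend gene are not reported here.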

Additional observations from a re-analysis of the deposited data

How the results depend on the processing

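No called slope, step, bend or rank 1 difference of a named gene changed sign under any alternative run. Counting each named gene once per alternative, 1647 of 2019 slopes, 1682 of 2051 high steps, 271 of 413 low steps, 182 of 252 bends and 276 of 399 rank 1 differences stayed on their side of the threshold; 24 slopes passed only in an alternative. RLE scaling, the limma fit and the filters left the counts within 1.5 times except that a filter on CPM gave 17 low steps, and no filter gave 143 rank 1 differences. DESeq2 called 734 slopes, 64 low steps, 29 bends and 252 rank 1 differences. All 12 libraries in one fit gave 742 slopes, 9 low steps, 316 high steps and 2 rank 1 differences. The thalamus score as a term gave 32, 16, 277, 49 and 11 (slopes, low steps, high steps, bends and rank 1 differences). Ranks of 0, 1, 1 and 3 gave 521 slopes, and the slope contrast of the group fit 1156. With sham alone at rank 1 there were 694 slopes, 99 low steps, 84 high steps and 8 bends, and with supplemented ADX alone 750, 11, 1294 and 260. The causes of these differences were not tested.

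Slopes from the group fit gave 823 graded, 292 upper-threshold and 41 lower-threshold genes. Limits of 0.33 and 0.67 gave 97 upper-threshold and 9 lower-threshold genes; sham alone placed 27 in the lower and supplemented ADX alone 103 in the upper class. Leaving out 1 library in turn gave 39 to 838 slopes, 4 to 365 low steps, 107 to 992 high steps, 3 to 64 bends, 1 to 739 rank 1 differences, 38 to 563 graded, 1 to 251 upper-threshold, 0 to 24 lower-threshold and 0 to 18 non-monotone genes. The non-monotone class of 5 was 0 without the first high-corticosterone library and 18 and 17 without the first and second sham library.

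Replicate numbers were not taken as pairs: the correlation of same-numbered deviations ran from 0.011 to 0.135 over the 6 pairs of groups, and the labels tie the numbers to nothing. With the replicate block there were 232 slopes, 69 low steps, 720 high steps, 23 bends and 338 rank 1 differences. With 2 libraries a group, small differences and low counts are not resolved, and a gene that missed the threshold is not shown to be unaffected.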
